A study of Mus musculus with 2 samples.

Results

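The 10 genes described here are linked to the maturation of dendritic cells and to the ligands of the chemokine receptor CCR4: Ccl17, Ccl22, Ccr7, Fscn1, Cacnb3, Il4i1, Socs2, Cd209a, Il12b and Cd40. They were matched by symbol, and all 10 were among the 54838 genes in the deposited matrices. The genes were picked because earlier results from the same cells had shown them to differ between the libraries, so every difference between the libraries is given as a description, without a test. The study sorted live immune cells from mouse intestine and sequenced them as single cells. The wild-type (WT) library came from WT mice and the knockout (KO) library from mice lacking Dpf2, which encodes a subunit of the BAF chromatin remodelling complex, and both groups of mice had received 10 Gy of X-rays. Cells had been chosen by a viability dye and by whether they carried GFP or tdTomato, and the labels do not say which genotype or cell carried which reporter. The labels give neither the number and sex of the mice, the time after irradiation and the part of the intestine, nor the driver and extent of the Dpf2 deletion. There was 1 library for each genotype, so no difference between the genotypes has a replicate check, and mouse, batch and genotype cannot be told apart.

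Dendritic cells take up antigen in the intestinal wall and, once mature, move through lymph to the draining lymph node to activate T cells. Maturation turns on CCR7, the receptor that leads the cells to the node, the actin-bundling protein fascin (Fscn1), costimulatory receptors such as CD40, and the chemokines CCL17 and CCL22, which attract T cells and innate lymphoid cells carrying CCR4. Cacnb3 encodes a regulatory subunit of voltage-gated calcium channels, Il4i1 a secreted amino acid oxidase, Socs2 a suppressor of cytokine signalling, and Il12b the p40 chain shared by the cytokines IL-12 and IL-23. Cd209a encodes a C-type lectin found on part of the type 2 dendritic cells and on monocyte-derived cells before maturation.

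Ccl17 and Ccl22, the genes whose levels differed most between the libraries, are neighbours on chromosome 8 (GRCm38, GENCODE vM21). Ccl22 lies at chr8:94745590-94751699 and Ccl17 at chr8:94810453-94812036, both on the plus strand and both protein coding. The gap between them is 58.8 kb and holds Cx3cl1, another chemokine gene. Cd209a, the member with the opposite difference, lies elsewhere on the same chromosome, at chr8:3743397-3748984 on the minus strand. The other members are protein-coding genes spread over 6 chromosomes: Fscn1 at chr5:142960343-142973185, Ccr7 at chr11:99144196-99155077, Il12b at chr11:44400063-44414033, Cacnb3 at chr15:98630840-98644529, Il4i1 at chr7:44816387-44840809, Socs2 at chr10:95385362-95417180 and Cd40 at chr2:165055627-165072948. The promoters of these 3 genes are shown because Ccl17 and Ccl22 differed in the same direction in the same cells, while Cd209a differed in the other. Each runs from 250 bases before to 50 bases after the RefSeq start (GRCm38.p6), 5′ to 3′ on the gene's own strand, and the capitals mark matches to 2 spaced repeats of the kind bound by STAT factors, TTC and GAA with 4 bases between them or with 3 between them, each searched on both strands, where they read the same. The windows are chr8:94810203-94810502 (plus) for Ccl17, chr8:94745434-94745733 (plus) for Ccl22 and chr8:3748935-3749234 (minus) for Cd209a.
Ccl17: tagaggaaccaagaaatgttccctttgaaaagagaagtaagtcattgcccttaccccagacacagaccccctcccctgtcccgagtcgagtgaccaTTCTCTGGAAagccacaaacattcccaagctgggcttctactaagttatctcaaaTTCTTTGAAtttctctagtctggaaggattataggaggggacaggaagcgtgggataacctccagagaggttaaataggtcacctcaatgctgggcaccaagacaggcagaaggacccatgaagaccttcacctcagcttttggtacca
Ccl22: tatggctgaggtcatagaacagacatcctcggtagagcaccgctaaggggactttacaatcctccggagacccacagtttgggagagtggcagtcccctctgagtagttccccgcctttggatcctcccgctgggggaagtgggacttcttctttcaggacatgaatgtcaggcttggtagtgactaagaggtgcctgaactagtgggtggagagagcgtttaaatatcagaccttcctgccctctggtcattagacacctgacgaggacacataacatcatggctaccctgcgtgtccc
Cd209a: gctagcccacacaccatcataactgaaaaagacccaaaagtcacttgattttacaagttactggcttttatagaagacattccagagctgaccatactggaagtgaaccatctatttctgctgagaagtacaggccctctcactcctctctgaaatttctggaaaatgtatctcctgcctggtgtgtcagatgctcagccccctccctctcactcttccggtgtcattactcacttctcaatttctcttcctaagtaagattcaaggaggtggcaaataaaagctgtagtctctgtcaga
Ccl17 held 1 match to each repeat, TTCTCTGGAA at positions -154 to -145 and TTCTTTGAA at positions -99 to -91 from the start. The matches in Ccl17 do not overlap. Of 32851 RefSeq promoters of this length, 6.95% held the repeat with 4 bases between and 8.30% that with 3. The other members with a promoter entry (7 of 10 had one; Ccr7, Socs2 and Cd40 were not matched) held no match to either repeat, and none of the 7 held the NF-kB consensus, which 8.46% of all promoters held. A match is a description of the letters in the window only.

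The libraries held 10958 (WT) and 8794 (KO) cell barcodes with 64786549 and 49590755 unique molecular identifiers (UMIs, each the count of 1 captured RNA molecule). After filtering and removal of called doublets 10259 and 8265 cells were kept, in 26 clusters. Before filtering 24 barcodes occurred in both libraries, and 0 barcodes were dendritic cells in both. Dpf2 itself was at 33.3 UMIs per 1000000 in WT and 19.6 in KO cells, a KO to WT ratio of 0.589 (95% interval 0.543 to 0.638). The 3′ reads need not lie in the deleted part, so this level does not check the deletion. Xist was seen without Y-linked genes in 144 WT and 177 KO dendritic cells and Y-linked genes without Xist in 239 and 194, so both libraries held cells from both sexes. Intervals are exact Poisson or binomial intervals at 95% and cover counting error only.

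The dendritic cells were 1 cluster, with 657 WT and 641 KO cells, 6.40% and 7.76% of the kept cells, and median depths of 8934 and 10562 UMIs. Its leading 100 genes held 6 type 2 markers, among them Clec10a, Cfp and Cbfa2t3. Clustered again without the 10 members among the clustering genes, it gave 10 subclusters. Subcluster 6 had 13 of 30 markers of mature dendritic cells among its leading 100 genes, Slco5a1, Nudt17 and Anxa3 in its leading 10, and is called mature-like. Subcluster 0, led by Tlr3 and Xcr1, had 10 of 14 markers of type 1 conventional dendritic cells and is called cDC1-like. Subclusters 8 and 9 also carried B cell genes (11 WT and 23 KO cells) and T cell genes (20 and 6 cells). The other subclusters, 466 WT and 455 KO cells, are the remaining dendritic cells. Subclusters 3, 4 and 5 held 382 of the 466 WT cells, and subclusters 1 and 2 held 356 of the 455 KO cells, so a level over the remaining cells is taken over largely different subclusters in the 2 libraries.

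The members marked different cells. A level is the number of UMIs of a gene in all cells of a class together, divided by all UMIs of that class and given per 1000000 (CPM). Ccl17 and Ccl22 were highest in the mature-like and then in the remaining dendritic cells in both libraries, among 18 classes: the mature-like cells and every class of 50 or more cells in both libraries. Smaller clusters were not ranked. Dendritic cells gave 72.6% of the 420 Ccl17 UMIs of the WT library and 80.4% of the 3667 of the KO library, and cluster 1, an unnamed myeloid cluster led by Inhba and Aoah, gave 18.6% and 14.7%. Ccr7 was highest in the mature-like cells (2105 CPM in WT, 1617 in KO). Next came B cell-like cluster 0 (371 and 428), the remaining dendritic cells (251 and 414) and cluster 10, led by Lef1 (264 and 218); the order among these 3 differed between the libraries. Among the ranked classes Socs2 was highest outside the myeloid cells, in ILC2-like cluster 17 (368 and 459 CPM), followed by the mature-like cells (206 and 178) and by cluster 11, led by Itgb8 and Foxp3 (93.3 and 117). Cd40 was highest in macrophage-like cluster 13 (203 and 261 CPM), and Cd209a in the remaining dendritic cells (138 and 18.5).

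Over all dendritic cells, 9 of the 10 members had a higher level in the KO library and Cd209a a lower level. Ccl17 was at 46.3 CPM in WT (305 UMIs) and 397 in KO (2950 UMIs), a ratio of 8.56 (7.60 to 9.66). Ccl22 was at 92.4 (608 UMIs) and 475 (3532 UMIs), a ratio of 5.14 (4.71 to 5.61). Fscn1 was at 12.9 (85 UMIs) and 68.3 (508 UMIs), a ratio of 5.29 (4.20 to 6.73). On the scale log2(level + 10), these differences were 2.85, 2.24 and 1.77, which made Ccl17 the first, Ccl22 the second and Fscn1 the fourth among the 8379 genes with enough counts. A gene counts as at least 2-fold higher when its difference on that scale is 1 or more. By that rule 3 of the 10 members were higher, against 0.692% of all genes, and 1, Cd209a, was lower, against 0.394%; the choice of the members used this comparison, so nothing is read from these counts. The median difference was 0.845 over the members and -0.01 over all genes.

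The other 6 members differed less on that scale. Ccr7 was at 226 CPM in WT and 426 in KO, a ratio of 1.88 (1.77 to 2.01). Socs2 was at 9.42 and 23.9, a ratio of 2.54 (1.89 to 3.45). Cacnb3, with 29 and 100 UMIs, was at 4.41 and 13.4, a ratio of 3.05 (2.0 to 4.79). These ratios of low levels pass 2 although the differences on the log2(level + 10) scale, 0.80 for Socs2 and 0.70 for Cacnb3, do not reach 1. Il4i1 was at 14.3 and 29.7, a ratio of 2.08 (1.63 to 2.68). The Il4i1 gene overlaps Nup62 on the same strand and Atf5 and Tbc1d17 on the other, and the sources do not state how shared reads were counted, so its values are uncertain. Il12b was at 45.9 and 94.4, a ratio of 2.06 (1.79 to 2.36), and single cells weighed on it: 85 of the 302 WT UMIs and 94 of the 702 KO UMIs each came from 1 cell. Cd40 was at 65.8 and 111, a ratio of 1.69.

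**Figure D1:**
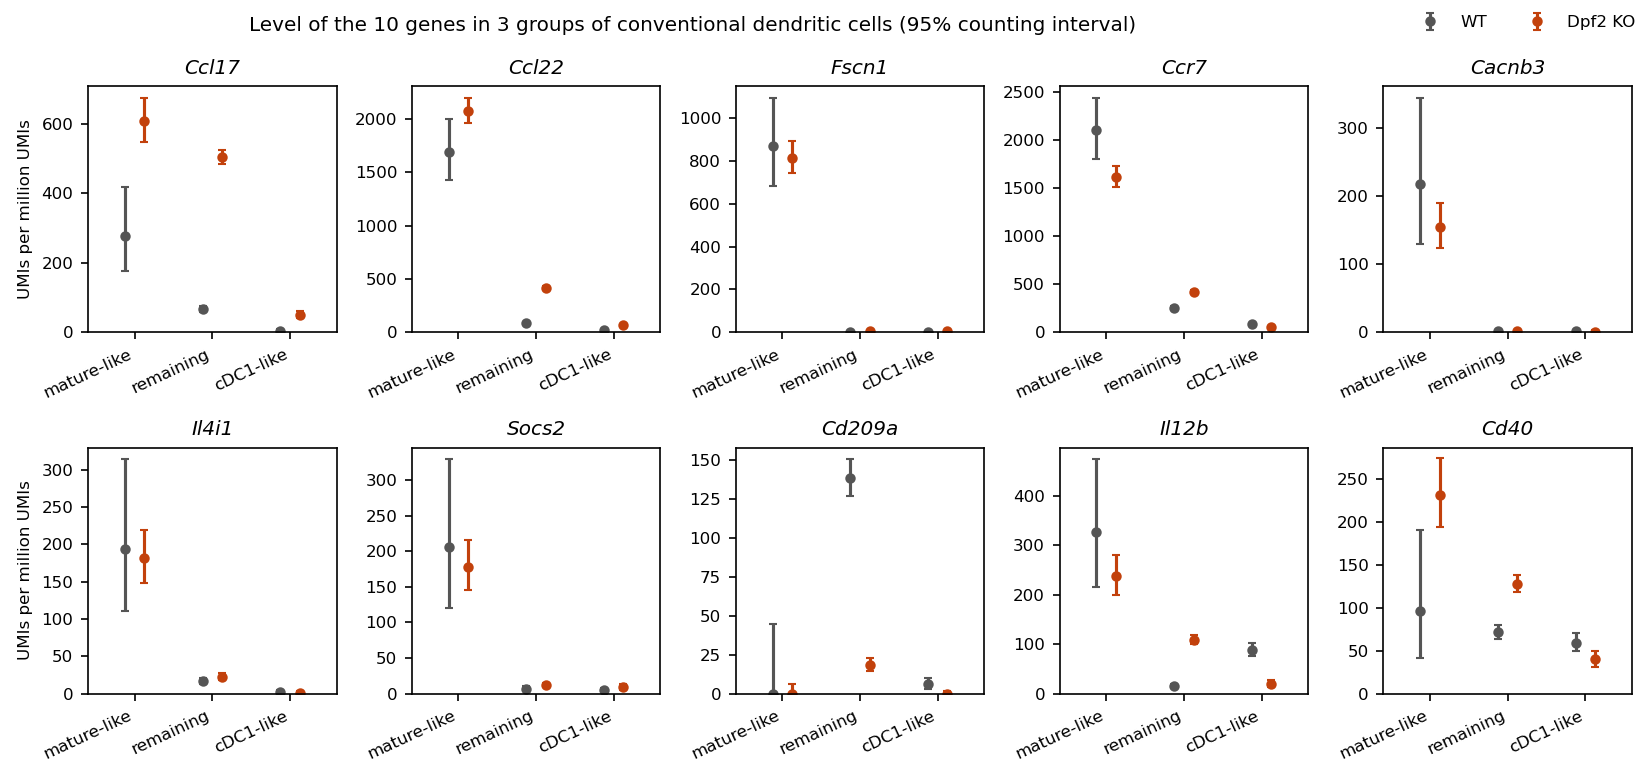
Level of each of the 10 genes (CPM, vertical axis, scaled separately in each panel) in mature-like, remaining and cDC1-like dendritic cells, WT in gray and KO in orange; error bars are 95% Poisson intervals of the summed UMIs. Ccl17 and Ccl22 were higher in KO in each of the 3 classes, Fscn1 and Cacnb3 were highest in the mature-like cells, and Cd209a was lower in KO in the remaining cells.

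The mature-like cells were a larger share of the dendritic cells in the KO library. They numbered 8 of 657 in WT, 1.22% (0.527% to 2.39%), and 51 of 641 in KO, 7.96% (5.98% to 10.3%), a ratio of 6.53 (2.51 to 19.6, from the facing and the outer bounds of both intervals). Median depth was alike in these cells, 10242 UMIs in WT and 10608 in KO. The cDC1-like cells made up 23.1% and 16.5% and the remaining cells 70.9% and 71.0%. Within the remaining cells the subclusters shifted: subcluster 1 held 4.26% of WT and 31.7% of KO dendritic cells and subcluster 4, led by Pde4d, 21.6% and 0.936%. The ratio depended on where the mature-like boundary fell. It was 5.13 with called doublets kept, 6.0 over cells with at least 1000 UMIs and 5.64 at a clustering resolution of 2. At a resolution of 0.5 it was 2.09 (28 WT and 57 KO cells), and 20 of those 28 WT cells came from the subcluster with T cell genes. With the 10 members among the clustering genes it was 2.04 (24 and 48 cells), and 16 of the 24 WT cells came from that subcluster. When each library was clustered alone, the WT cells gave no mature-like subcluster and the KO cells gave 46 cells. Among cells with Xist and no Y-linked RNA the mature-like numbered 0 in WT and 10 in KO, and among cells with Y-linked RNA and no Xist 3 and 16, a ratio of 6.57.

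**Figure D2:**
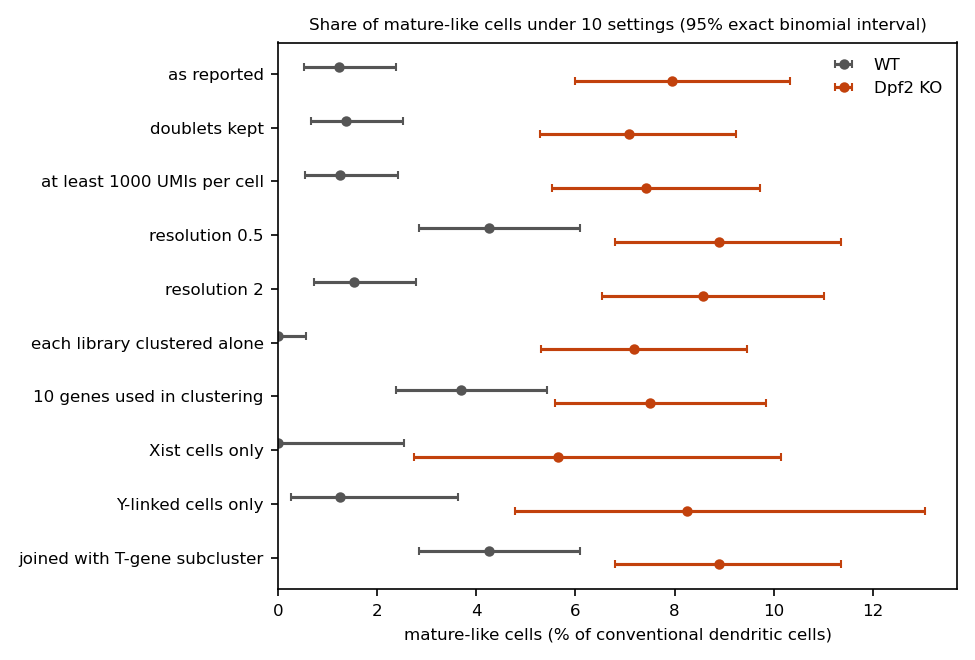
Mature-like cells as a percentage of dendritic cells (horizontal axis) under the setting used and under other settings, WT in gray and KO in orange, with 95% binomial intervals. The KO share was higher under each setting shown, and the WT share was highest where cells with T cell genes joined the mature-like group.

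Among dendritic cells, most Fscn1 and Cacnb3 UMIs came from the mature-like cells. These cells gave 84.7% of the Fscn1 UMIs of WT dendritic cells and 92.7% of those of KO, and 62.1% and 89.0% of the Cacnb3 UMIs. Of all cells of the library they gave 19.4% of the 372 Fscn1 UMIs in WT and 72.4% of the 651 in KO, and 18% of the 100 Cacnb3 UMIs in WT and 65.4% of the 136 in KO. Plasma cell-like cluster 2 gave 24.7% of the WT Fscn1 UMIs, so neither gene was limited to dendritic cells. For Socs2 the shares were 27.4% and 57.9%, for Il4i1 17.0% and 47.5%, and for Ccr7 11.7% and 29.5%. Within the mature-like cells as bounded here none of these 5 genes was higher in KO. All 5 comparisons rest on that boundary, which left 8 WT cells. At resolution 0.5 the group held 28 WT cells, 20 of them from the subcluster with T cell genes. Fscn1 was at 871 CPM in WT (72 UMIs in 8 cells) and 815 in KO (471 UMIs in 51 cells), a ratio of 0.936 (0.729 to 1.22). Its UMIs in the 8 WT cells were 0, 0, 4, 5, 11, 13, 17 and 22, and the KO cells had a median of 4 and a highest value of 109. The WT cells thus lay within the range of the KO cells. Ccr7 was at 2105 in WT (174 UMIs) and 1617 in KO (934 UMIs), a ratio of 0.768 (0.653 to 0.908). The direction rests on where the mature-like cells were bounded: the log2 difference was above 0, at 1.09, with clusters cut at resolution 0.5 and at 1.16 with the members among the clustering genes. Its WT cells held 9, 12, 14, 14, 22, 30, 36 and 37 UMIs, and the KO cells had a median of 15 and a highest value of 62. Every WT mature-like cell had Ccr7 RNA, and the 2 libraries overlapped over the whole WT range. Cacnb3 was at 218 and 154 (0.707, 0.423 to 1.25), Il4i1 at 194 and 182 (0.939, 0.552 to 1.70) and Socs2 at 206 and 178 (0.867, 0.516 to 1.55). Each of these 3 intervals includes 1 and is too wide, with 8 WT cells, to show that the levels were alike. Without the top cell of each library the ratio was 1.31 (0.662 to 2.95) for Il4i1 and 1.04 (0.569 to 2.10) for Socs2.

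Ccl17 and Cd40 were the members with at least a 2-fold higher level in the KO mature-like cells. Of the 9 members with enough counts in these cells 2 were higher, where 6.76% of 1257 genes were, and 0 were lower, where 1.99% were. These cells held 82669 UMIs in WT and 577750 in KO, so genes reached enough counts mostly through KO. The genes counted were thus picked largely by their KO level. Ccl17 was at 278 CPM in WT (23 UMIs) and 609 in KO (352 UMIs), a ratio of 2.19 (1.44 to 3.50). Its UMIs in the 8 WT cells were 0, 0, 0, 0, 0, 1, 2 and 20, against a median of 4 and a highest value of 37 in KO. A single WT cell held 20 of the 23 WT UMIs, and without the top cell of each library the levels were 42.0 and 557, a ratio of 13.3 (4.50 to 64.7). Ccl22 was at 1694 (140 UMIs) and 2082 (1203 UMIs), a ratio of 1.23 (1.03 to 1.48). Its WT cells held 0, 0, 1, 3, 6, 12, 41 and 77 UMIs, against a median of 14 and a highest value of 101 in KO. Without the top cells the ratio was 2.25 (1.74 to 2.95), so 1 WT cell set much of the WT level of both chemokines. Cd40 was at 96.8 (8 UMIs) and 232 (134 UMIs), a ratio of 2.40 (1.18 to 5.67). Il12b was at 327 and 237, a ratio of 0.726 (0.478 to 1.14), but all 27 WT UMIs lay in 1 cell. Cd209a had 0 UMIs in both, which allows up to 44.6 CPM in WT and 6.38 in KO. In these cells the summed level of B cell markers was 84.7 in WT and 466 in KO, that of T cell markers 169 and 46.7, that of monocyte markers 689 and 424 and that of genes induced by tissue handling 6883 and 8890; their part in the differences was not tested.

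Most of the Ccl17 and Ccl22 RNA came from dendritic cells without the mature-like profile. The remaining dendritic cells gave 84.3% of the dendritic Ccl17 UMIs in WT and 78.5% in KO, and 53.6% and 54.2% of the Ccl22 UMIs. In these cells Ccl17 was at 65.5 CPM in WT (257 UMIs) and 504 in KO (2316 UMIs), a ratio of 7.69 (6.76 to 8.78). Ccl22 was at 83.1 (326 UMIs) and 416 (1913 UMIs), a ratio of 5.01 (4.45 to 5.65). Among 6872 genes Ccl17 had the largest difference toward KO, Il12b the second and Ccl22 the third, and Cd209a the largest toward WT. Of the 7 members with enough counts 3 were at least 2-fold higher, where 1.05% of all genes were, and 1 was lower, where 0.757% were. WT cells of this group were mostly in subclusters 3, 4 and 5 and KO cells in subclusters 1 and 2. The summed level of monocyte markers in the group was 2536 in WT and 1498 in KO, that of plasma cell markers 6268 and 5782 and that of Paneth cell markers 5.86 and 50.5, and their part in the differences was not tested.

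The chemokine differences were also present inside the single subclusters. Ccl17 was at 187 CPM in WT and 427 in KO in subcluster 1 (2.28-fold), at 150 and 819 in subcluster 2, which was led by the interferon-induced genes Ifit1 and Rsad2 (5.47-fold), and at 16.7 and 93.8 in subcluster 3, led by Cd7 (5.62-fold). In subcluster 4, with 142 WT and 6 KO cells, it was at 113 and 933 (8.25-fold). The ratio was above 1 in each of the 7 subclusters compared (0 to 5 and 7), with an interval above 1 in all 7. Of these, subcluster 5 held 12 KO cells. Subcluster 1, led by Tmem267, held 28 WT and 203 KO cells, with median depths of 3705 and 9161 UMIs. Ccl22 was at 220 and 306 in subcluster 1 (1.39-fold), at 425 and 764 in subcluster 2 (1.80-fold) and at 68.0 and 571 in subcluster 4 (8.41-fold). It was higher in KO in all 7, with an interval above 1 in 4. Ccr7 and Il12b were each higher in 4 of the 7.

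More cells carried the chemokine RNA, and the carrying cells held more of it. In the remaining dendritic cells Ccl17 was seen in 13.7% of WT and 52.7% of KO cells, and Ccl22 in 18.7% and 55.4%. Among cells with Ccl17 the median was 2 UMIs in WT and 5 in KO, and 4.08% of WT and 27.5% of KO cells held 5 or more. Among cells with Ccl22 the medians were 1 and 3, and 4.29% and 22.4% of cells held 5 or more. Thinned to 1000 UMIs a cell, which left out 10 WT and 7 KO cells, 4.82% and 25.4% of cells had a Ccl17 UMI, a ratio of 5.27. The Ccl22 shares were 4.39% and 21.2%, a ratio of 4.83. In plasma cell-like cluster 2, which should lack both, the thinned shares were 0.077% and 0.166% for Ccl17 and 0.077% and 1.16% for Ccl22; its median depths were 8854 and 7657.5 UMIs, against 7834.5 and 9320 in the remaining dendritic cells. The dendritic shares stood above this background in both libraries.

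The 2 chemokines were mostly carried by the same KO cells. Both were seen in 28 WT cells of the remaining group (6.01%) and in 175 KO cells (38.5%). Ccl17 alone was seen in 7.73% and 14.3%, Ccl22 alone in 12.7% and 16.9%, and neither in 73.6% and 30.3%. Of the cells with Ccl17, 43.8% in WT and 72.9% in KO also had Ccl22. These shares are not thinned, and KO cells were deeper.

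The difference in each level over all dendritic cells can be divided into a part from the changed shares of the 5 groups and a part from changed levels within them. Each ± value here is the standard error of counting, not a 95% interval. For Fscn1 the KO level was 55.4 CPM higher, of which 54.5 came with the shares. The other 0.844 ± 5.03 lay within groups, 1.52% of the difference. For Ccl17 the difference was 350, of which 22.1 came with the shares and 328 ± 8.25 lay within groups, 93.7%. For Ccl22 it was 382, with 91.1 from shares and 291 ± 10.8 within groups, 76.2%. Cacnb3 had -22.3% within groups, so the shares alone gave more than its whole difference of 9.04. Il4i1 had 27.8% within groups, Socs2 25.1% and Ccr7 45.6%. Cd209a had 101% within groups, Cd40 85.0% and Il12b 73.4%.

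The division depended on how finely the cells were grouped. Over the 10 subclusters the share within was 86.9% for Ccl17, 61.2% for Ccl22, 91.1% for Cd209a and -0.03% for Fscn1. It was lower for Ccr7 (15.3%), Il12b (47.0%) and Cd40 (25.1%), and it was -92.9% for Il4i1, where levels within subclusters were on balance lower in KO. With cells grouped by the number of mature markers they carried, the share within was 91.6% for Ccl17, 75.0% for Ccl22, 97.0% for Cd209a, 58.6% for Ccr7 and 55.4% for Fscn1. The class with 6 or more markers held 8 mature-like cells among 62 in WT and 50 among 144 in KO, so for Fscn1 the value within classes includes this unequal share. The Fscn1 values near 0 hold only for the mature-like boundary used. That boundary is the same for the 5 groups and the 10 subclusters and left 8 WT cells. At resolution 0.5 the mature-like group held 28 WT cells, 20 of them from the subcluster with T cell genes. The Fscn1 share within groups is not given here for that boundary. Ccl17, Ccl22 and Cd209a had more than 50% within groups over the 5 groups, the 10 subclusters and the marker number classes. Over the 10 subclusters part of this rested on few KO cells. Subcluster 4, with 6 KO cells, gave 26.2% of the Ccl17 and 14.7% of the Ccl22 difference. Subcluster 5, with 12 KO cells, gave 5.68% and 8.57%, and subcluster 9, with 6, gave 5.38% and 10.7%. Subcluster 2, with 153 KO cells, gave 24.3% and 11.3%.

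**Figure D3:**
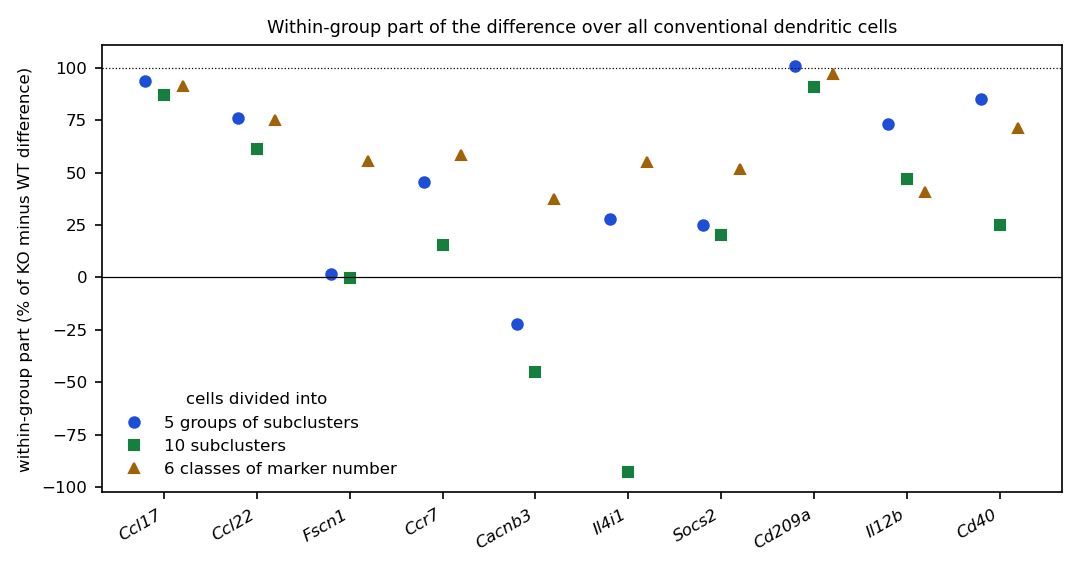
Share of the KO minus WT difference in level over all dendritic cells that lay within groups (percent, vertical axis) for each of the 10 genes (horizontal axis), with cells divided into 5 groups, 10 subclusters or 6 classes by number of mature markers. Ccl17 and Cd209a were at 86.9% or more under all 3 divisions. Fscn1 was near 0 for the first 2, which have the same mature-like cells, and at 55.4% for the third.

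Maturity was also followed as a range, by counting how many of the 30 mature markers, none of them a member, each cell carried after thinning to 2000 UMIs. The median was 3 markers in WT and 4 in KO dendritic cells, and 42.3% and 54.1% of the cells carried at least 4. In the mature-like cells the medians were 10.5 and 10. Ccl17 was higher in KO in the 5 classes with at least 1 marker, among them cells with 3 (36.8 CPM in WT and 336 in KO) and with 6 or more (109 and 652). The highest ratio was 10.5, at 2 markers. At 0 markers the levels were 65.7 and 133, but 16 of the 22 KO UMIs lay in 1 of 14 cells, and 25% of WT and 21.4% of KO cells had a UMI. Ccl22 was higher in KO in the 5 classes with at least 1 marker, reaching 452 and 1288 with 6 or more, and lower at 0 markers (127 and 30.2), a class of 24 WT and 14 KO cells. Cd209a was lower in KO in every class, at 88.7 and 15.4 with 3 markers and 55.2 and 11.3 with 6 or more. Fscn1 was at 113 and 289 in the cells with 6 or more markers, of which 8 of 62 in WT and 50 of 144 in KO were mature-like, and had 6 UMIs or fewer in each other class.

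**Figure D4:**
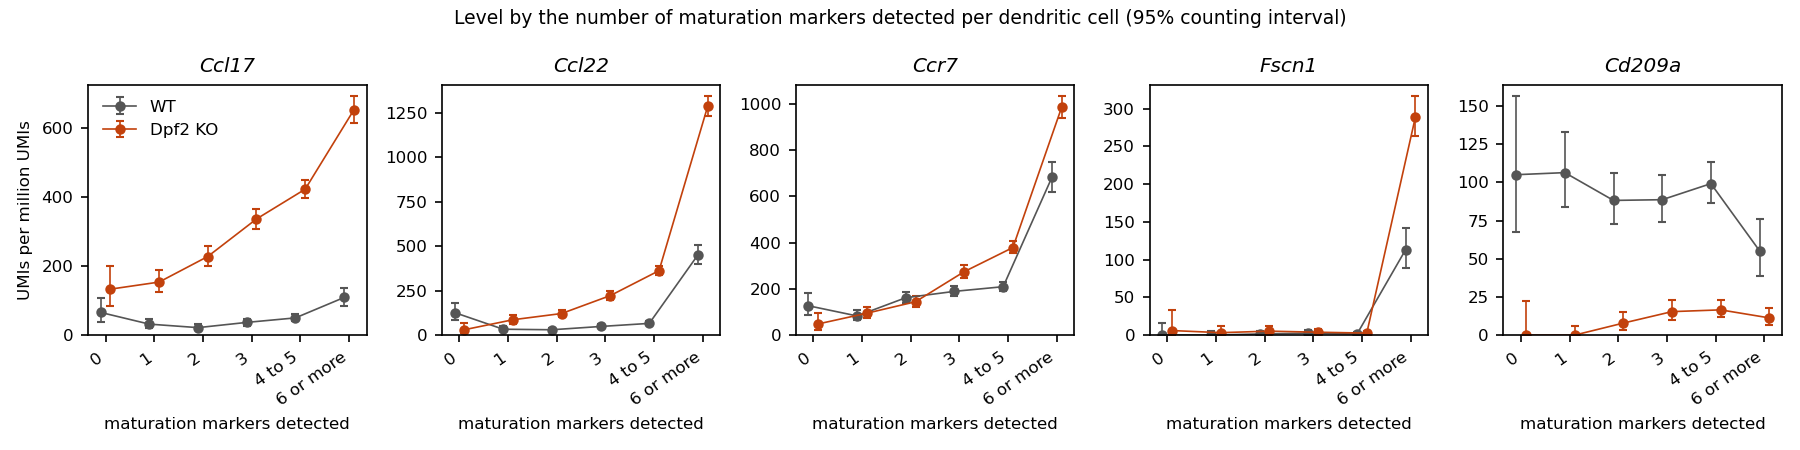
Levels of Ccl17, Ccl22, Ccr7, Fscn1 and Cd209a (CPM, vertical axis) in dendritic cells by the number of mature markers carried after thinning (horizontal axis: 0, 1, 2, 3, 4 to 5, 6 or more), WT in gray and KO in orange, with 95% Poisson intervals. Ccl17 was higher in KO in the 5 classes with at least 1 marker, Cd209a was lower in KO in every class, and Fscn1 was found almost entirely in the class with the most markers.

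Cd209a was the member with a lower level in KO. Over all dendritic cells it was at 90.7 CPM in WT (597 UMIs, in 33.5% of cells) and 11.96 in KO (89 UMIs, in 7.33% of cells), a ratio of 0.132 (0.104 to 0.165). Its log2 difference of -2.20 was the lowest of the 8379 genes. In the remaining cells it was at 138 and 18.5, a ratio of 0.134 (0.105 to 0.168), and it was lower in each of the 7 subclusters compared, with an interval under 1 in all 7. Subcluster 1 had 114 and 21.0, subcluster 2 had 102 and 18.0, and subcluster 3 had 209 CPM in WT and 0 UMIs in its 42 KO cells. Thinned to 1000 UMIs, 12.7% of WT and 1.34% of KO remaining cells had a Cd209a UMI. Cd209a has close paralogs, and the counting of reads shared among them is not stated. Their UMIs in the remaining cells were few, 10 in WT and 1 in KO for Cd209b, 7 and 2 for Cd209c and 6 and 2 for Cd209d. Of 15 other genes of immature type 2 cells with enough counts in the remaining cells, 10 were higher in KO and 5 lower, with a median of 0.08 on the log2(level + 10) scale. The 1 that was at least 2-fold lower was Mrc1, an endocytic lectin gene, at 23.5 and 4.79. Clec10a and Mgl2, other lectins of the list, chosen after their values were seen, were at 75.0 and 78.1 and at 55.8 and 59.8. Monocyte markers together were at 2536 CPM in the WT and 1498 in the KO remaining cells, and their part in the Cd209a difference was not tested.

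Il12b and Cd40 differed in opposite directions in different dendritic cells. In the remaining cells Il12b was at 15.045 CPM in WT (59 UMIs, in 4.51% of cells) and 109 in KO (503 UMIs, in 9.01%), a ratio of 7.28 (5.55 to 9.70). The largest part of this was in subcluster 2, at 47.6 and 273. In the cDC1-like cells it was at 87.7 in WT (180 UMIs, of which 85 in 1 cell) and 19.8 in KO (37 UMIs), a ratio of 0.225 (0.154 to 0.322). Cd40 was at 71.4 and 128 in the remaining cells, a ratio of 1.79 (1.55 to 2.07), and at 59.4 and 40.0 in the cDC1-like cells, a ratio of 0.674 (0.499 to 0.906). Among cells with Xist only, Il12b over all dendritic cells was at 71.2 in WT and 57.5 in KO (0.808, 0.613 to 1.06), and among cells with Y-linked RNA only at 26.6 and 139 (5.21-fold). Ccl17 was higher in KO in both sets of cells, at 47.5 and 400 with Xist and 35.3 and 372 with Y-linked RNA, as was Ccl22, at 71.9 and 442 and at 83.0 and 460.

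In the cDC1-like cells, which take up dying cells and present their antigens to CD8 T cells, Ccl17 was low in both libraries. It was at 3.90 CPM in WT (8 UMIs in 6 cells) and 49.7 in KO (93 UMIs in 26 cells), a ratio of 12.7 (6.21 to 30.4). Plasma cell-like cluster 2, taken above as background, held 5 Ccl17 UMIs among 11983421 in WT and 23 among 4883885 in KO. The background thus differed in the same direction. Ccl22 was at 23.9 and 64.6, a ratio of 2.71 (1.93 to 3.85). Ccr7 was lower in KO, at 83.3 and 52.9, a ratio of 0.635 (0.490 to 0.818). Of 5 members with enough counts 2 were at least 2-fold higher, where 0.558% of 5019 genes were, and 1, Il12b, was lower, where 0.877% were. The summed level of plasma cell markers in these cells was 7837 in WT and 3164 in KO, and its part in the differences was not tested.

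Cluster 1 had the chemokine difference in the same direction at lower levels. In this cluster, the unnamed myeloid cluster led by Inhba and Aoah (1318 WT and 748 KO cells), Ccl17 was at 12.7 CPM in WT (78 UMIs) and 108 in KO (540 UMIs), a ratio of 8.48 (6.68 to 10.9). Ccl22 was at 12.4 and 57.0, a ratio of 4.61 (3.57 to 6.02). Of 5 members with enough counts 2 were at least 2-fold higher, where 0.731% of 7525 genes were, and 0 were lower, where 0.704% were. Ccr7 was lower in KO in cluster 1, at 134 and 66.2, a ratio of 0.495 (0.434 to 0.563), and Cd40 was at 135 and 129. Il12b had 65 WT and 185 KO UMIs there, 61 of the KO UMIs in 1 cell, and too few cells with a UMI to be counted among these 5. When only cells with at least 1000 UMIs were clustered, the best match of cluster 1 was also that of cluster 8. That merged cluster of 2489 cells shared 62.9% of the joint cells with cluster 1, and its Il12b log2 difference was -0.43. In monocyte-like cluster 8, led by Chil3 and F13a1, Ccl22 was at 1.51 and 13.8 and Ccl17 at 1.51 and 5.05. Plasma cell-like cluster 2 had Ccl22 at 2.25 and 12.9 and Ccl17 at 0.417 and 4.71, so the cluster 8 values are close to background and are read as neither expression nor a difference. Cd209a had 33 WT and 0 KO UMIs in cluster 8. Cd40 was at 62.5 and 41.3 in cluster 8, a ratio of 0.661 (0.506 to 0.859). In macrophage-like cluster 13, led by Pf4 and C1qa, Cd40 was at 203 and 261, a ratio of 1.29 (0.993 to 1.70), and Ccl17 had 1 WT and 15 KO UMIs. In plasmacytoid-like cluster 20 Ccl17 and Ccl22 each had 0 WT and 2 KO UMIs.

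**Figure D5:**
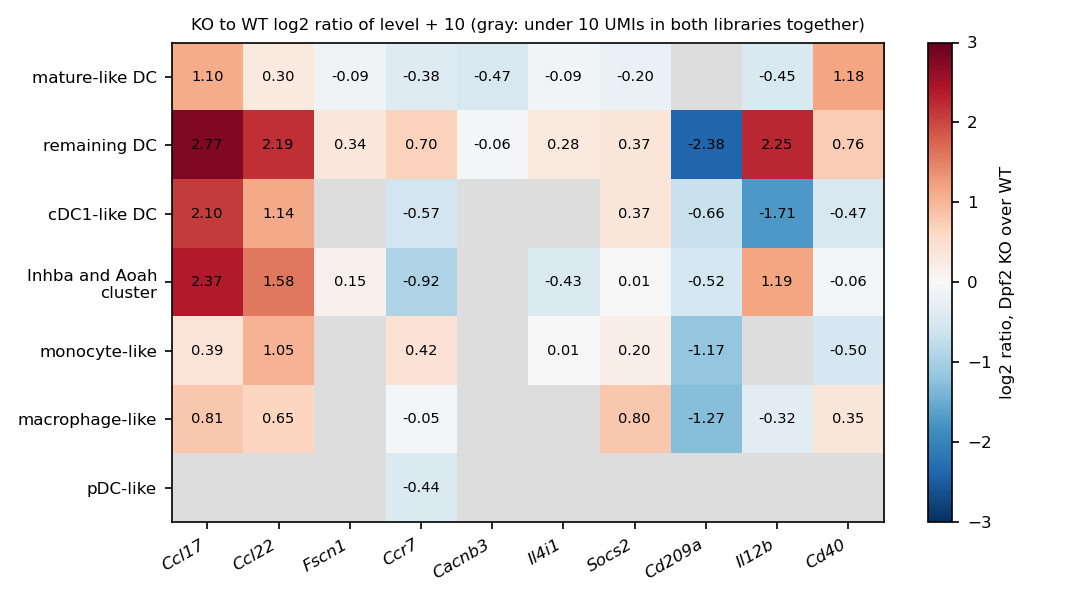
KO to WT difference on the log2(level + 10) scale for each of the 10 genes (columns) in 7 classes of myeloid cells (rows); color gives the difference and gray marks pairs with under 10 UMIs in both libraries together. Ccl17 and Ccl22 were higher in KO in the dendritic classes and in cluster 1, and Ccr7 was higher in the remaining dendritic cells and lower in cluster 1.

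Genes that go with the members were followed in lists that hold none of them. Of 34 other genes of dendritic cell maturation with enough counts over all dendritic cells, 25 were higher in KO, 6 at least 2-fold (0.692% of all 8379 genes were) and 0 at least 2-fold lower (0.394% were), with a median difference of 0.26 on the log2(level + 10) scale against -0.01 over all genes. The 6 included Mreg, at 42.4 CPM in WT and 175 in KO, Tbc1d4, at 211 and 612, and the chemokine gene Cxcl16, at 173 and 390. Many genes of this list, Mreg and Tbc1d4 among them, are also among the 30 mature markers that named the mature-like cells. The rise of the list over all dendritic cells is therefore not independent of the larger mature-like share in KO. Within the mature-like cells 25 genes of that list had enough counts, and 3 of them were at least 2-fold higher, where 6.76% of 1257 genes were: Slco5a1 (48.4 and 183), Ankrd33b (133 and 438) and Anxa3 (48.4 and 171). All 3 are markers that named this subcluster. Their WT levels come from 8 cells with 82669 UMIs of all genes together, so each rests on few UMIs. The median there was 0.09 against 0.10 over all genes, so the list as a whole stood at the level of all genes. Its lowest members were Apol7c (593 and 353), the uptake receptor gene Ly75 (1331 and 798) and Serpinb6b (762 and 459).

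Of 16 genes of CD40 and NF-kB signalling, 14 were higher in KO over all dendritic cells, 1 of them at least 2-fold, with a median of 0.37. The counts at least 2-fold higher or lower for this and the next lists stand beside 0.692% and 0.394% of the 8379 genes. Traf5, an adaptor of this pathway, was at 21.3 and 62.9, the NF-kB subunit gene Rel at 2023 and 3258 and the inhibitor gene Nfkbia at 439 and 685. Among 5 cytokine genes of the IL-12 list with enough counts, Ebi3, which encodes a chain of IL-27 and IL-35, was at 21.6 and 61.7, and Tnf was at 44.5 and 92.6. Il23a, the partner of p40 in IL-23, had 11 and 38 UMIs, and Il12a, the partner of p40 in IL-12, had 3 and 4. Of 16 genes of cytokine receptors and STAT factors, 1 was at least 2-fold higher, Stat5a (81.1 and 255), and 1 lower, Il7r (199 and 64.8). Stat6 was at 37.4 and 44.4. Of the 7 other SOCS family genes 0 were at least 2-fold different, and Socs1 was at 36.8 and 21.4. Among 15 genes of immature type 2 cells and 9 of calcium handling and the cytoskeleton 0 differed at least 2-fold, with medians of 0.15 and -0.21.

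Receptors and ligands that pair with the members were followed over the clusters. Ccr4, the receptor for CCL17 and CCL22, was at 82.4 CPM in WT and 66.5 in KO in ILC2-like cluster 17, at 46.3 and 39.5 in cluster 11, led by Itgb8 and Foxp3, and at 32.4 and 48.3 in cluster 6, led by Il17a. Cd40lg, the ligand of CD40, was at 120 and 126 in cluster 6 and 110 and 120 in T cell-like cluster 4. Il12rb2, a chain of the IL-12 receptor, was at 1530 and 1023 in cluster 4, and Il23r, a chain of the IL-23 receptor, at 1208 and 1436 in ILC3-like cluster 12. In the remaining dendritic cells Il12rb2 was at 35.7 and 10.9. Cx3cl1, which lies between Ccl22 and Ccl17 on chromosome 8, was at 2.74 and 7.26 in the dendritic cells and highest in cluster 12, at 107 in both libraries.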

How the data were processed

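The 2 count matrices of 10x single-cell RNA-seq, 1 per genotype, were used as deposited; their values are UMI counts per gene and cell, made by the authors. The submitters' processing notes name Cell Ranger 7.0.0 and GRCm38. Which annotation release was used, and whether introns and strand were counted, is not given in the sources. Cells with at least 200 genes, at least 500 UMIs and at most 20% mitochondrial UMIs were kept, 10896 in WT and 8681 in KO, and Scrublet run on each library removed 637 (5.85%) and 416 (4.79%) as doublets. Median depth was 4543 and 4112 UMIs a kept cell.

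Counts were scaled to 10000 a cell and logged for clustering only (scanpy 1.11.5, numpy 2.4.6, scipy 1.17.1, scikit-learn 1.9.0, leidenalg 0.10.2 at resolution 1, igraph 0.11.9, Python 3.11.15), over both libraries together, with 2000 variable genes in 20 bins, 30 components and 20 neighbours; no batch correction was made. A cluster was named "like" a type where 3 or more markers stood among its leading 100 genes (genes found in 25% or more of the cells) and 3 or more were found in 10% or more of the cells. Levels are counts summed over a class per 1000000 UMIs. A gene had enough counts from 100 UMIs in the libraries together, if 5% or more of the cells of 1 library carried it. Differences are log2 ratios of level plus 10. The part within groups is the sum of level differences weighted by each group's mean share of UMIs. With 1 sample a group there is no test, and the replicate spread is not known. Calculations were tested on simulated data.

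The genes and lists were chosen with earlier results of these data known. All members are described. From each list up to 3 genes with the highest and lowest log2 ratio in mature-like cells, the class with the highest level of a receptor, and genes most alike to Ccl22 were named by rule; the other genes named over all dendritic cells, and Clec10a and Mgl2, were chosen after their values were seen. Gene positions are from GENCODE vM21, in which 99.8% of the gene IDs were found, and promoters are from RefSeq.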

Additional observations from a re-analysis of the deposited data

Results flagged for a closer look

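Ccr7, Il12b and Cd40 differed between the libraries in opposite directions in different classes of myeloid cells; with 1 library a genotype the difference between classes was not tested. The KO to WT ratio of Ccr7 was 1.65 in the remaining dendritic cells, against 0.768 in mature-like cells, 0.635 in cDC1-like cells and 0.495 in cluster 1. The mature-like value was on the other side of 1 with 2 other boundaries of these cells, where the log2 difference was 1.09 and 1.16. Ccr7 also had a ratio of 1.59 in monocyte-like cluster 8, from 36 and 47 UMIs; its levels there, 13.6 and 21.6 CPM, were below those in plasma cell-like cluster 2, 16.3 and 28.5, so it is read as background. For Il12b the ratio was 7.28 in the remaining dendritic cells, against 0.225 in cDC1-like cells. Its ratio of 3.49 in cluster 1 came from 65 and 185 UMIs, 61 of the KO UMIs in 1 cell. With only cells of at least 1000 UMIs clustered, the log2 difference was -0.43, in a merged cluster that matched both cluster 1 and cluster 8. In cluster 1 the Il12b ratio was 11.2 in cells with Xist (5 and 69 UMIs) and 0.248 in cells with Y-linked genes (12 and 2 UMIs), so no direction is read there. For Cd40 it was 2.40 in mature-like cells and 1.79 in the remaining dendritic cells, against 0.674 in cDC1-like cells and 0.661 in cluster 8.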

How the results depend on the processing

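No paired analysis was possible because each genotype had 1 library. The main values were the mature-like share ratio and the numbers of genes at least 2-fold apart over all dendritic cells. They also took in the Ccl17 and Ccl22 differences over all and in mature-like dendritic cells, and the shares within groups of both genes. Under other settings 41 of these main values stayed within their counting interval and 34 moved. Of all other values, 358 stayed, 137 moved and 6 changed sign. A change of sign was counted only where the counting interval left out 0. Other values could change sign and be counted as stayed or moved, as Il4i1, Socs2 and Il12b did in mature-like cells without the top cells. The mature-like share ratio of 6.53 became 2.09 at resolution 0.5, 2.04 with the members in the clustering and 2.09 with the T cell gene subcluster joined. Over all dendritic cells the log2 difference of Ccl17 (2.85) was 3.07 in Y-linked cells, 3.07 with 1 added in place of 10, 2.21 with 50 added, 2.62 as a mean per cell and 3.48 without the small remaining subclusters; that of Ccl22 (2.24) was 2.47 in Xist cells and 1.88 with 50 added. In mature-like cells Ccl17 (1.10) was 2.61 at resolution 0.5, 2.50 with the members in the clustering, 4.78 in Y-linked cells and 3.45 without the top cell; Ccl22 (0.30) was 0.67 with doublets kept, 1.83, 1.78, 3.74 and 1.16 in the same order. The share within groups for Ccl17 (93.7%) was 86.5% with each library clustered alone, 83.5% in Xist cells, 98.8% in Y-linked cells and 86.9% over 10 subclusters. For Ccl22 (76.2%) it was 69.7% at 1000 UMIs or more, 89.8% at resolution 0.5, 58.4% alone, 91.2% with the members in the clustering, 57.0% in Xist cells, 86.8% in Y-linked cells and 61.2% over 10 subclusters. Genes at least 2-fold higher over all dendritic cells numbered 58, 142 with 1 added, 12 with 50 added and 59 unfiltered; lower genes numbered 33, 126, 4 and 34. The counted changes of sign were those of Cacnb3 over all dendritic cells (-0.054 without the mature-like and the B and T cell gene subclusters), Il12b (-0.27 in Xist cells), Ccr7 in mature-like cells (1.09 at resolution 0.5, 1.16 with the members in the clustering), Fscn1 in remaining cells (-0.37 with doublets kept) and Il12b in cluster 1 (-0.43 at 1000 UMIs or more). The cause was not tested. The settings that left out top cells, that joined or left out subclusters, or that divided cells into 10 subclusters or by marker number, were chosen after seeing the data. The mature-like share ratio and levels gave no value with each library clustered alone or in Xist cells, where WT had no mature-like cell, and thinned shares of Il4i1, Cd209a and Cd40 gave no ratio in mature-like cells. Cluster 8 gave no value with doublets kept or at 1000 UMIs or more, where its best match held cluster 1 as well and shared 24.2% and 28.9% of their joint cells. The values of cluster 1 under these settings, the -0.43 of Il12b among them, come from the same merged clusters. These shared 66.2% and 62.9% of the joint cells with cluster 1. Median-ratio size factors in place of total UMIs shifted all genes by -0.015 (log2) over all dendritic cells and 0.10 in mature-like cells. The WT mature-like values rest on 8 cells.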

Other observations

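The genes whose levels were most alike to that of Ccl22 over 18 classes in 2 libraries (36 points, which share libraries and depth) were Adam23, with a Pearson correlation of 0.919, Col27a1 (0.909) and Aldh1a2 (0.905), the last of which encodes an enzyme that makes retinoic acid. Among the members, Ccl17 had a correlation of 0.943 with Ccl22, Il12b 0.892 and Il4i1 0.881. Aldh1a2 itself was at 17.3 CPM in WT and 19.8 in KO dendritic cells, and at 15.045 and 15.9 in the remaining cells, so its level in these cells differed little between the libraries.

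Ccr8, a receptor of type 2 lymphocytes, was at 65.9 in WT and 27.3 in KO in ILC2-like cluster 17, a ratio of 0.414 (0.216 to 0.755), and at 25.1 and 31.9 in cluster 11.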
